A study of Mus musculus with 9 samples.

Results

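The comparison described here sets aortas after 14 days of angiotensin II (Ang II) infusion against sham aortas of the same mouse genotype, over 3 libraries on each side and 6 of the 9 libraries in the series. Members were chosen by their titles alone. All mice of both groups are labelled as ApoE knock out, a genotype known to lack apolipoprotein E, to clear lipoproteins poorly and to be prone to atherosclerosis. Ang II was given by osmotic pump at 1000 ng/kg/min, and the suprarenal abdominal aorta was taken. The series' design text speaks of saline-infused mice and of a harvest at 28 days, while the sample titles name 14 and 28 days and a sham control. For the sham mice no harvest day is given in the sources used here, and for all mice neither age, sex nor background strain. Nor is it stated that each library came from a separate animal, so the p-values measure only the spread between these libraries, which may be technical.

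Ang II acts on the smooth muscle, endothelium and adventitia of the aorta through G protein-coupled receptors. In mice prone to atherosclerosis a long infusion is known to cause dilation and aneurysm of the suprarenal aorta, with entry of leukocytes, breakdown of elastic fibres and remodelling of the adventitia. The aorta is wrapped in fat that includes brown adipocytes, and sympathetic nerve fibres and ganglia lie beside it. A piece of dissected aorta can therefore hold RNA of all these cells. The account below leaves aside most of the usual inflammatory, collagen and contractile genes and describes what else differed.

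Expected counts totalled 9999430 to 13564489 in the sham libraries and 13569092 to 14923936 at 14 days, and 14741 of the 18830 listed genes were tested. Values below are counts scaled to a common library size (CPM), with edgeR's TMM factors. Values of 3 libraries are in the order of replicates 1 to 3, and log2 fold changes are given as 14 days over sham ± SE. edgeR's quasi-likelihood test called 0 genes at a Benjamini-Hochberg adjusted p under 0.05, and the smallest adjusted p was 0.112. At an unadjusted p under 0.05 it had 3460 genes (23.5%), 1931 of them higher and 1529 lower at 14 days. limma-voom also called 0 genes, with 2985 at an unadjusted p under 0.05, whereas DESeq2 called 1970, with 4019 at an unadjusted p under 0.05. In 1861 genes (12.6%) all the 14-day libraries lay above all the sham libraries, and in 1986 genes (13.5%) all lay below. These shares are the background for the counts of non-overlapping members given for each list. Without 14-day replicate 1 the counts were 2996 and 3189, without sham replicate 1 the higher count was 2907, and without sham replicate 2 the lower count was 3202, since leaving out a library can only add such genes. Without 14-day replicate 2 or sham replicate 3, the 1529 lower genes at an unadjusted p under 0.05 became 698 or 670. Because no gene passed edgeR's threshold, genes are described below as higher or lower in these libraries, by their values.

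The libraries of a group differed from each other in cell type markers. Summed macrophage markers (8 genes, 6 of them without overlap) were 354 to 1529 CPM in sham and 2278, 12889 and 2215 CPM at 14 days, so 14-day replicate 2 stood far above the rest. Neutrophil markers (5 genes, 4 of the 4 tested higher without overlap) summed to 4.72 to 10.3 CPM in sham and 20.2, 84.1 and 27 CPM at 14 days. T cell markers (6 genes, all 6 higher without overlap) summed to 8.72 to 14.9 CPM in sham and 62.3, 69.7 and 598 CPM at 14 days. B and plasma cell markers (6 genes, all 6 higher without overlap) summed to 7.83 to 16.5 CPM and 90.6, 93.2 and 1224 CPM. Both lymphocyte sums were thus above sham in each 14-day library, and by far the highest in 14-day replicate 3. Lymph node stroma markers were also highest there, at 687 CPM, against 258 and 171 CPM in 14-day replicates 1 and 2 and 76.9 to 97.8 CPM in sham. Smooth muscle markers (7 genes, none of them at 0, none without overlap) summed to 9370 to 28067 CPM in sham and 16348, 3553 and 12066 CPM at 14 days, so the labelled tissue's own muscle was read in each library. Brown fat markers (7 genes, 5 without overlap and none at 0) summed to 4531 to 9613 CPM in sham and 1097 to 2688 CPM at 14 days. White fat markers (6 genes, 1 without overlap) summed to 11043 to 16428 and 4311 to 13338 CPM. Sympathetic neuron markers (8 genes, none at 0) were uneven within both groups, at 103, 6234 and 17.4 CPM in sham and 2454, 58 and 216 CPM at 14 days, which sets sham replicate 2 and 14-day replicate 1 apart. Skeletal muscle markers, looked at because the sample titles begin with the word muscle, summed to at most 43.5 CPM with Myh4 at 0, and markers of epithelium, adrenal cortex, kidney, liver, pancreas and mesothelium to at most 16.1 CPM in any library. In such bulk samples, fewer cells of a type and less RNA per cell cannot be told apart. Apoe, the gene named in the genotype, was read in all 6 libraries, at 22.5, 87.5 and 70.3 CPM in sham and 162, 648 and 159.7 CPM at 14 days, and gene-level counts do not show which exons were read, so the labelled deletion could not be checked. The chromosome Y genes Ddx3y and Eif2s3y, picked after their values were seen, were read at 54.5 to 85.9 and 61.7 to 98.1 CPM. Each of the 6 libraries therefore held RNA of male mice, although the labels give no sex.

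**Figure D1:**
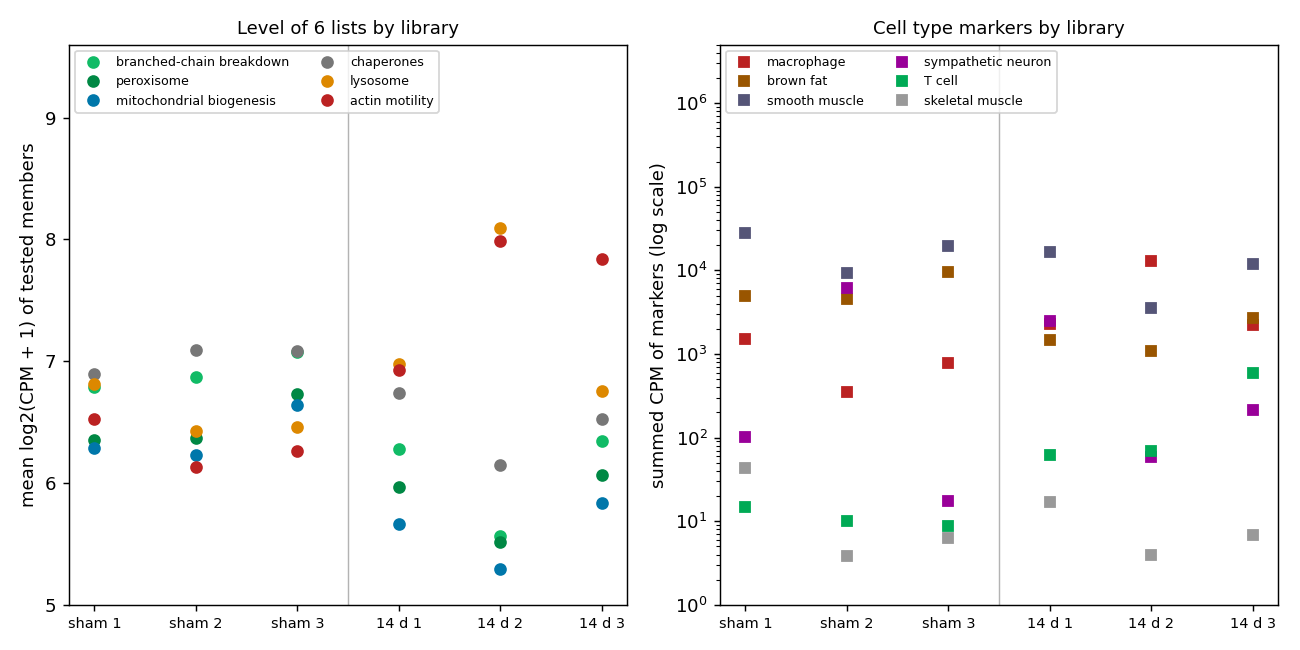
Left, mean log2(CPM + 1) of the tested members of 6 gene lists in each of the 6 libraries; right, summed CPM (log scale) of 6 sets of cell type markers in the same libraries. Mean levels of branched-chain amino acid breakdown, peroxisome and mitochondrial biogenesis genes were lower in every 14-day library than in every sham library. The mean level of actin motility genes was higher in every 14-day library. That of lysosome genes was highest in 14-day replicate 2, where macrophage markers reached 12889 CPM.

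Among genes outside a list of usual name prefixes, the 15 with the smallest p among those higher at 14 days without overlap had log2 fold changes of 0.96 to 3.82, each with an adjusted p of 0.117 by edgeR. Usual genes were left out by the start of their symbols only, so genes of immune cells such as Themis2 remain among the 15. DESeq2 called all 15 (8.6% of all genes in that direction), but they were chosen by p and lack of overlap on the same counts, so these calls add no support. Ripk3, the kinase that drives necroptosis, was 3.73, 1.93 and 3.56 CPM in sham and 9.46, 31.4 and 21.3 CPM at 14 days (log2 2.75 ± 0.49). Apaf1, the scaffold of the apoptosome (Entrez 11783, GRCm38.p6 chromosome 10, 90989311 to 91082743), had 8.95, 8.08 and 8.72 CPM in sham and 15.1, 23.1 and 17.7 CPM at 14 days (log2 1.12 ± 0.20). The sham libraries agreed closely for Apaf1, and the lowest 14-day library was well above them. Sting1, the endoplasmic reticulum adaptor of cyclic dinucleotide sensing, had 14.6, 9.44 and 16.5 CPM against 42.6, 85.1 and 87 CPM (log2 2.41 ± 0.42). Uba7, which activates the ubiquitin-like protein Isg15 for conjugation, had 21.5, 26.8 and 20.1 CPM against 49.6, 43.4 and 66.2 CPM (log2 1.22 ± 0.21). The mono-ADP-ribosyltransferase Parp14 had 30.5, 38.8 and 29.7 CPM against 68.5, 58.3 and 66.3 CPM (log2 0.96 ± 0.16), with little spread in either group. Neurl3, an E3 ubiquitin ligase of the neuralized family, was 14.1, 11.4 and 9.52 CPM in sham and 35.8, 93.6 and 94.2 CPM at 14 days (log2 2.68 ± 0.46). Its 14-day replicates 2 and 3, the leukocyte-rich libraries, were both far above replicate 1, as for Ripk3 and Sting1; the part of the macrophage and lymphocyte markers in these results was not tested.

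Rtn4rl2, a Nogo receptor relative known from neurons (Entrez 269295, GRCm38.p6 chromosome 2, 84871297 to 84888641), had 3.3, 3.22 and 3.56 CPM in sham and 12.1, 11.5 and 8.35 CPM at 14 days (log2 1.66 ± 0.25). The sham values were nearly equal, and among the 14-day libraries the lymphocyte-rich replicate 3 was the lowest. Prcp, prolylcarboxypeptidase, a lysosomal and cell-surface enzyme known to remove the last residue of Ang II (Entrez 72461, GRCm38.p6 chromosome 7, 92875253 to 92934581), had 29, 22.8 and 25.2 CPM in sham and 49.3, 87 and 53.4 CPM at 14 days (log2 1.3 ± 0.24). Ggt5, the gamma-glutamyl transferase that converts leukotriene C4 to D4, had 7.99, 7.72 and 6.94 CPM against 18.6, 28.7 and 16 CPM (log2 1.48 ± 0.25). For both enzymes 14-day replicate 2 was the highest library, and the groups did not overlap. Plcl2, an inositol phosphate-binding protein related to phospholipase C but without its catalytic activity (Entrez 224860, GRCm38.p6 chromosome 17, 50508865 to 50688494), had 8.31, 5.22 and 5.43 CPM against 19.8, 45.7 and 48.9 CPM (log2 2.60 ± 0.42). Atp8b4, of the P4 family of phospholipid-flipping ATPases, was low in sham at 1.6, 1.29 and 0.712 CPM and had 4.9, 29 and 17.3 CPM at 14 days (log2 3.82 ± 0.66). Exoc3l2, an exocyst-related protein, had 4.16, 7.15 and 4.81 CPM against a narrow 13.2, 13.9 and 14.5 CPM (log2 1.37 ± 0.24). Exoc3l2 was even across the 14-day libraries, whereas Plcl2 and Atp8b4 were lowest in 14-day replicate 1. Themis2, a signalling protein of B cells and macrophages, had 14, 6.87 and 10.9 CPM against 32.1, 69.2 and 47.2 CPM (log2 2.23 ± 0.40). The predicted gene Gm42226, whose function is not known, had 13.1, 13 and 17.2 CPM against 27.1, 34.9 and 40.9 CPM (log2 1.25 ± 0.23).

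Serpina3g, a serpin that inhibits cysteine cathepsins, had 5.86, 2.65 and 2.85 CPM in sham and 24.5, 65.1 and 40.4 CPM at 14 days (log2 3.52 ± 0.63). It lies in a cluster of close copies on chromosome 12, and 3 neighbours picked after their values were seen were also higher without overlap. Serpina3f had 0.639, 0.501 and 0.89 CPM against 4.55, 5.55 and 6.11 CPM, Serpina3i 0.959, 0.143 and 0.267 CPM against 1.82, 2.81 and 2.1 CPM, and Serpina3m 1.49, 1.43 and 1.51 CPM against 10.4, 2.52 and 2.99 CPM. Serpina3m was highest in 14-day replicate 1 and Serpina3g in replicate 2, so the copies did not follow 1 order over the libraries. Expected counts divide reads that fit several copies among them, so the share of each copy is uncertain. Marco, a scavenger receptor of macrophages picked after its values were seen, had 0.213, 0.143 and 0.089 CPM in sham and 28.3, 19 and 18.5 CPM at 14 days. Here the 14-day libraries were similar, although their summed macrophage markers ran from 2215 to 12889 CPM, and a fit of these 6 libraries alone called this 1 gene (adjusted p = 0.0288 by edgeR, and 0.117 in the fit of all 9). All sham values of Marco are at or below the level of 3 counts (0.215 to 0.32 CPM in the sham libraries). Hmox1, heme oxygenase, also picked after its values were seen, had 49.2, 14.5 and 31.8 CPM against 89, 4187 and 54.2 CPM, so 1 library held nearly all of it. That library, 14-day replicate 2, also had the most macrophage markers and the most red cell markers, which summed to 437 to 489 CPM in sham and 1497, 2293 and 1189 CPM at 14 days (5 of 5 higher without overlap). Their part was not tested.

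**Figure D2:**
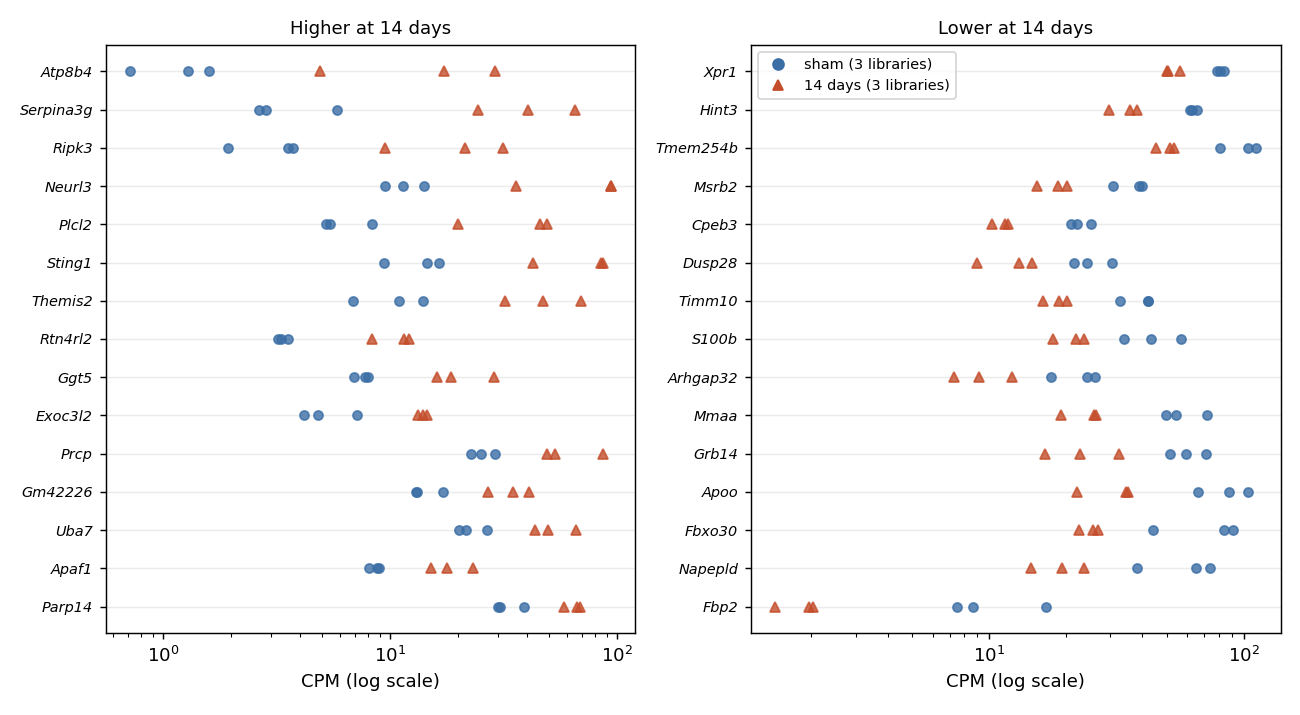
CPM (log scale) of the 15 genes with the smallest p that were higher at 14 days (left) and the 15 that were lower (right). Usual inflammatory, matrix, contractile, respiratory and cell division genes were left out by the start of their symbols only, so some immune genes remain. Circles are the 3 sham libraries and triangles the 3 14-day libraries. The groups do not overlap for any gene, which the choice of genes requires, and all 30 had an adjusted p of 0.117 by edgeR.

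The 15 lower genes had log2 fold changes of -2.59 to -0.63, each again with an adjusted p of 0.117 by edgeR, and DESeq2 called all 15 (4.77% of all genes in that direction), which the choice of genes likewise favours. They are given by what each is known to do, starting with 4 mitochondrial proteins. Apoo, a subunit of the complex that shapes mitochondrial cristae (Entrez 68316, GRCm38.p6 chromosome X, 94367010 to 94417093), had 87.9, 66.1 and 104 CPM in sham and 34.6, 22.3 and 35.2 CPM at 14 days (log2 -1.49 ± 0.31). Timm10, a small chaperone that carries proteins across the mitochondrial intermembrane space, had 42, 32.6 and 42.2 CPM against 18.8, 16.3 and 20.2 CPM (log2 -1.08 ± 0.21). Msrb2, which repairs oxidised methionine in mitochondria, had 30.7, 39 and 39.9 CPM against 18.6, 15.4 and 20.3 CPM (log2 -1.01 ± 0.18). Mmaa, a chaperone of the cobalamin-dependent methylmalonyl-CoA mutase, had 54.1, 49.6 and 72.2 CPM against 26.3, 19.2 and 25.8 CPM (log2 -1.3 ± 0.27). In all 4 genes 14-day replicate 2 was the lowest of the 6 libraries. Brown fat markers, which summed to 4531 to 9613 CPM in sham and 1097 to 2688 CPM at 14 days, were lower in the same libraries, and their part in these results was not tested.

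Napepld, the phospholipase that releases N-acylethanolamines such as anandamide from membrane lipid (Entrez 242864, GRCm38.p6 chromosome 5, 21662901 to 21701622), had 73.9, 38.2 and 65.3 CPM in sham and 23.7, 14.6 and 19.3 CPM at 14 days (log2 -1.62 ± 0.29). Fbp2, the muscle form of the gluconeogenic enzyme fructose bisphosphatase (Entrez 14120, GRCm38.p6 chromosome 13, 62836884 to 62858400), had 7.46, 8.65 and 16.7 CPM against 2.03, 1.44 and 1.97 CPM (log2 -2.59 ± 0.52), the largest difference of the 15. Grb14, an adaptor that inhibits the insulin receptor, had 59.4, 51.3 and 71.4 CPM against 32.5, 16.6 and 22.7 CPM (log2 -1.34 ± 0.28). Xpr1, the phosphate exporter of animal cells (Entrez 19775, GRCm38.p6 chromosome 1, 155275657 to 155417444), had 84, 80.5 and 78.9 CPM against 56.3, 50.4 and 50.2 CPM (log2 -0.63 ± 0.13). The Xpr1 values of each group differed by only a few CPM. S100b, a calcium-binding protein of glia and adipocytes, had 34, 56.6 and 43.4 CPM against 23.7, 17.9 and 21.9 CPM (log2 -1.08 ± 0.21). Schwann cell markers summed to 82.8, 772 and 56.9 CPM in sham and 445, 71.2 and 250 CPM at 14 days, overlapping between groups, and within each group the library with the most of them also had the most S100b. Their part was not tested.

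Fbxo30, the substrate-binding part of a ubiquitin ligase known from muscle wasting, had 84.1, 44 and 90.8 CPM in sham and 25.7, 22.5 and 26.8 CPM at 14 days (log2 -1.54 ± 0.26). Sham replicate 2 was the lowest of its group and still above each 14-day library. Cpeb3, a regulator of mRNA polyadenylation and translation, had 21, 22.1 and 25.2 CPM against 11.6, 10.3 and 11.9 CPM (log2 -1.02 ± 0.21). Hint3, a histidine triad nucleotide hydrolase, had 61.8, 62.5 and 65.8 CPM against 35.9, 29.6 and 38.3 CPM (log2 -0.87 ± 0.16). Both were even within groups. Arhgap32, a GTPase-activating protein, had 26.1, 24.2 and 17.4 CPM against 12.3, 7.28 and 9.16 CPM (log2 -1.23 ± 0.26), and Dusp28, an atypical dual-specificity phosphatase, had 21.6, 30.3 and 24.3 CPM against 14.7, 9 and 13.2 CPM (log2 -1.05 ± 0.23). Tmem254b, a membrane protein of unknown function, had 81, 104 and 112 CPM against 53.5, 45.3 and 51.4 CPM (log2 -0.99 ± 0.18), and near-identical copies of it in the mouse genome make that value uncertain.

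Beyond single genes, 38 functional lists were described by the median log2 fold change of their tested members. The lists were written from general knowledge, but with earlier results of these data known. The median of all 14741 genes was -0.07, with quartiles of -0.48 and 0.36. The list medians ran from -0.93 for branched-chain amino acid breakdown to 0.91 for actin assembly and motility.

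**Figure D3:**
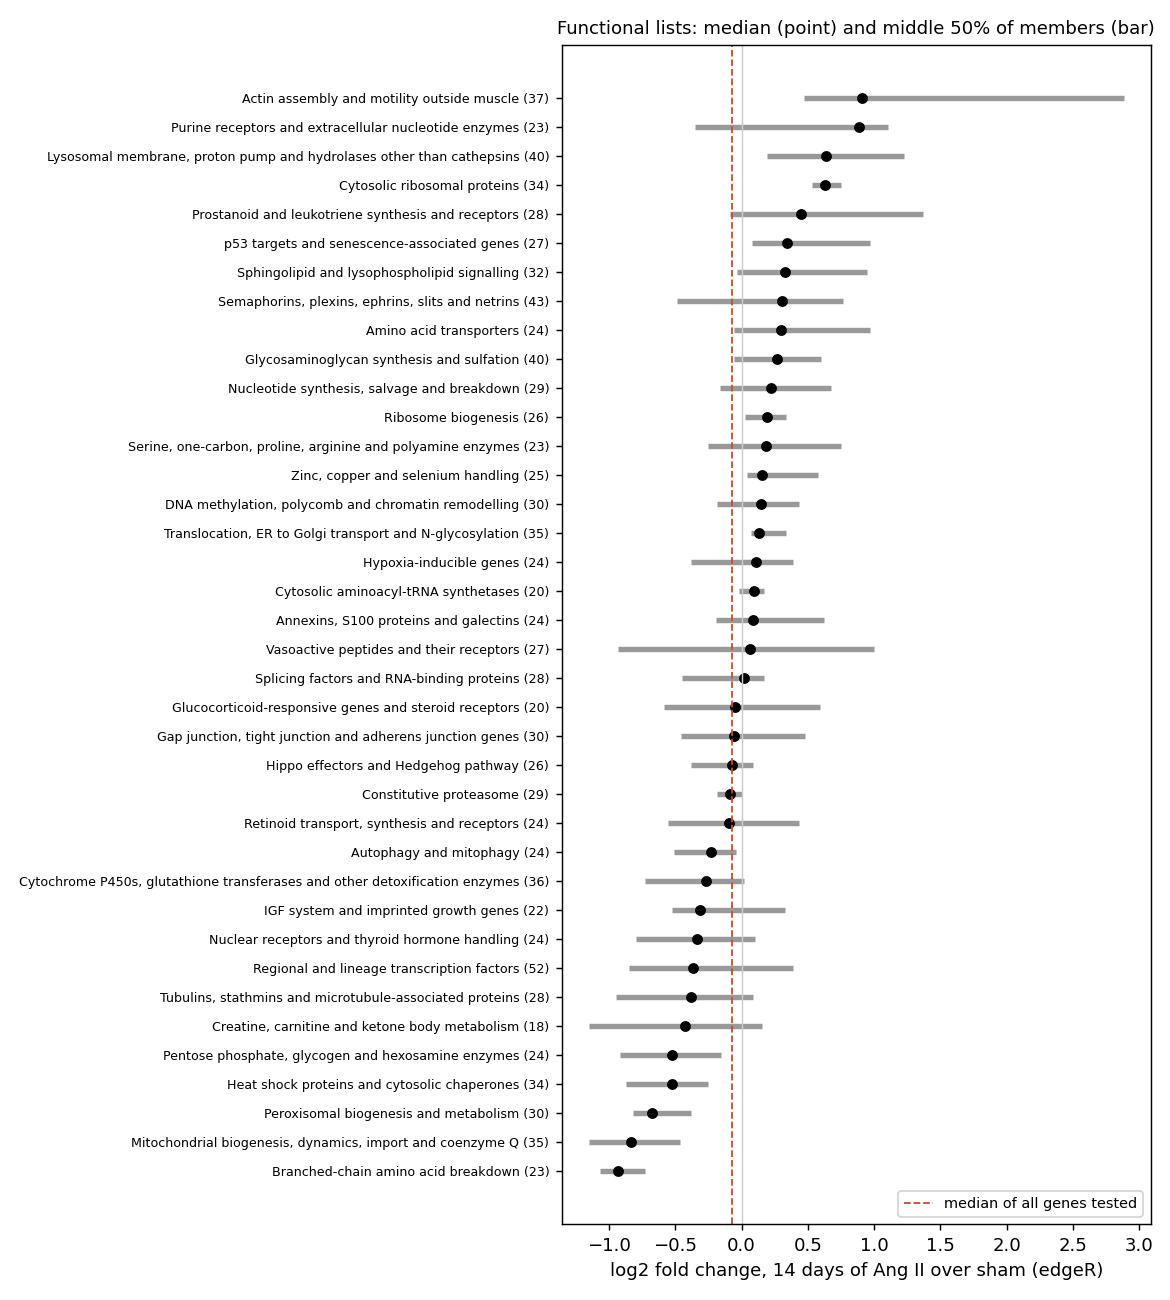
Median log2 fold change (points) and middle 50% of members (bars) of 38 functional lists, 14 days over sham by edgeR, with the number of tested members in brackets and the median of all genes tested, -0.07, as a dashed line. Branched-chain amino acid breakdown, mitochondrial biogenesis and peroxisome genes have the lowest medians, at -0.93, -0.83 and -0.67, and the bar of cytosolic ribosomal proteins is narrow.

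Genes of branched-chain amino acid breakdown, the mitochondrial pathway that turns leucine, isoleucine and valine into acetyl-CoA and propionyl-CoA, were lower as a set. All 23 tested members had negative fold changes, 17 were lower without overlap and 0 were higher without overlap. The mean level of the list was 6.79, 6.87 and 7.08 log2(CPM + 1) in sham and 6.28, 5.57 and 6.34 at 14 days, and its median stayed between -1.14 and -0.63 under each alternative tried. Mcee, the methylmalonyl-CoA epimerase (Entrez 73724, GRCm38.p6 chromosome 7, 64392622 to 64412121), had 74.7, 57.2 and 88.6 CPM in sham and 32.1, 35 and 36 CPM at 14 days (log2 -1.10 ± 0.24). Its 14-day libraries differed by under 4 CPM, and the lowest sham library was far above them. Dld, the dihydrolipoamide dehydrogenase shared by the branched-chain and pyruvate dehydrogenase complexes, had 400.2, 439 and 747 CPM against 215, 133 and 242 CPM (log2 -1.43 ± 0.38). The isobutyryl-CoA dehydrogenase Acad8 had 64.5, 49.8 and 75.9 CPM against 33.2, 31.5 and 35.1 CPM (log2 -0.93 ± 0.24). Auh, an enzyme of leucine breakdown, had 64.6, 63.9 and 76.8 CPM against 41.6, 28.5 and 45.8 CPM (log2 -0.83 ± 0.23). Bckdk, the kinase that switches the pathway off by phosphorylating the branched-chain dehydrogenase, was lower too, at 99.9, 106 and 147 CPM against 90.3, 77.1 and 90.2 CPM (log2 -0.45 ± 0.25). Sucla2 and Suclg1, subunits of succinyl-CoA ligase picked after their values were seen, had 459, 596 and 1109.8 CPM against 239, 143 and 308 CPM and 448, 373 and 747 CPM against 163, 111 and 226 CPM.

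Peroxisome genes gave a like picture, with 22 of 30 tested members lower without overlap, 0 higher, and a median of -0.67 (-0.82 to -0.48 under the alternatives). Peroxisomes shorten very long and branched fatty acids and build plasmalogens. Abcd3, a transporter that brings branched and bile acid precursors into the peroxisome (Entrez 19299, GRCm38.p6 chromosome 3, 121758904 to 121815302), had 164, 195 and 320.4 CPM in sham and 104, 69.7 and 94.7 CPM at 14 days (log2 -1.34 ± 0.33). Phyh, which starts the breakdown of phytanic acid, had 302, 288 and 501 CPM against 169, 102 and 184 CPM (log2 -1.26 ± 0.39), and the import receptor Pex7 had 28.1, 35.5 and 46.1 CPM against 22.9, 21.6 and 22.1 CPM (log2 -0.72 ± 0.22). Decr2, a peroxisomal dienoyl-CoA reductase, had 34.1, 33.4 and 43.7 CPM against 24.5, 23.8 and 21 CPM (log2 -0.68 ± 0.20). The lower values therefore reached both enzymes and import factors: Pex3, Pex5, Pex13, Pex14, Pex16 and Pex19 were lower without overlap as well, by -0.81 to -0.61 on the log2 scale.

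Of 35 tested genes of mitochondrial biogenesis, dynamics, import and coenzyme Q synthesis, 25 were lower and 1 higher without overlap (median -0.83, or -0.94 to -0.63 under the alternatives). Esrrg, a nuclear receptor of oxidative tissues, had 5.54, 4.65 and 7.74 CPM in sham and 1.54, 1.22 and 2.78 CPM at 14 days (log2 -1.69 ± 0.40). Mtfp1, a promoter of mitochondrial fission, had 27.1, 29.2 and 44.4 CPM against 11.6, 7.28 and 14.7 CPM (log2 -1.59 ± 0.38). The coenzyme Q synthesis genes Coq3 and Coq7 had 34.1, 33.5 and 39.1 CPM against 20.6, 13.1 and 20.4 CPM (log2 -0.98 ± 0.24) and 61.4, 56.3 and 75.4 CPM against 33.9, 26.1 and 36.9 CPM (log2 -0.99 ± 0.25). Each of these 4 genes was lower in every 14-day library, most in replicate 2. The fusion genes Mfn1, at 61.8, 61.3 and 66.2 CPM against 42.7, 31.9 and 41.8 CPM, and Opa1, at 93.9, 131 and 158 CPM against 74.8, 55 and 68.8 CPM, and the cristae organiser Immt, at 286, 383 and 588 CPM against 219.8, 142 and 239 CPM, were lower without overlap. Of their regulators, Esrra was lower without overlap, at 92.6, 65.7 and 110.2 CPM against 40.4, 46.6 and 59 CPM (log2 -0.88 ± 0.29). Ppargc1a, the coactivator of mitochondrial genes, had 20.4, 25.5 and 38.2 CPM against 25.1, 4.83 and 11.5 CPM (log2 -1.02 ± 0.77). Its groups overlapped through 14-day replicate 1 alone, and its spread was wide. Nrf1, a transcription factor of nuclear-encoded mitochondrial genes, was the 1 member higher without overlap, at 17.3, 15.9 and 16.8 CPM against 20.7, 20.8 and 31.6 CPM (log2 0.55 ± 0.20).

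Other fuel genes were lower or mixed. Creatine, carnitine and ketone body genes had a median of -0.43, with 5 of 18 lower and 0 higher without overlap; the median was -0.12 without sham replicate 2, -0.17 without sham replicate 1 and -0.27 without 14-day replicate 2. Slc25a20, the carnitine-acylcarnitine carrier of the inner mitochondrial membrane, had 245, 238 and 464 CPM in sham and 97.2, 72.4 and 142 CPM at 14 days (log2 -1.60 ± 0.41). Oxct1, which activates ketone bodies for use as fuel, had 493, 368 and 484 CPM against 289.9, 225 and 268 CPM (log2 -0.78 ± 0.26). Pentose phosphate, glycogen and hexosamine genes had a median of -0.52, with 7 of 24 lower and 0 higher without overlap, and -0.30 without sham replicate 3. Among them the glycogen genes Gbe1, the branching enzyme, at 116, 163 and 274 CPM against 91.7, 47.6 and 76.4 CPM, and Ppp1r3b, which targets protein phosphatase to glycogen, at 58.3, 239 and 428 CPM against 72.9, 38.7 and 69.7 CPM, varied widely within sham, and Ppp1r3b overlapped between groups. Sham replicate 3, which had the most brown fat marker RNA at 9613 CPM, was the highest library for both. Across all these metabolic lists the 14-day libraries also had the lower brown fat marker sums (1465, 1097 and 2688 CPM against 4982, 4531 and 9613 CPM in sham), and the part of brown fat in them was not tested. Autophagy and mitophagy genes had a median of -0.23, near that of all genes, with 10 of 24 lower and 0 higher without overlap, among them Map1lc3a, a membrane protein of autophagosomes, at 274, 204 and 219 CPM against 131, 81.4 and 122 CPM (log2 -1.06 ± 0.25), and the mitophagy kinase Pink1, at 291, 286 and 327 CPM against 205, 152 and 182 CPM (log2 -0.75 ± 0.23).

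Heat shock proteins and chaperones had a median of -0.53 (-0.73 to -0.39 under the alternatives), with 10 of 34 members lower and 0 higher without overlap. Chaperones of mitochondria were among them. Hspd1 and Hspe1, which fold proteins together in the mitochondrial matrix, are transcribed from neighbouring starts in opposite directions. The promoter of Hspe1 is shown because it holds the letters of a control element known from chaperone genes. It is RefSeq's, in GRCm38.p6 at chr1:55087898-55088197 on the plus strand, from 250 bases before the start site to 50 after it, with capitals marking 2 overlapping matches to the heat shock element, read here as the blocks TTC, GAA and TTC with 2 bases of any kind after each of the first 2 blocks.
Hspe1 promoter: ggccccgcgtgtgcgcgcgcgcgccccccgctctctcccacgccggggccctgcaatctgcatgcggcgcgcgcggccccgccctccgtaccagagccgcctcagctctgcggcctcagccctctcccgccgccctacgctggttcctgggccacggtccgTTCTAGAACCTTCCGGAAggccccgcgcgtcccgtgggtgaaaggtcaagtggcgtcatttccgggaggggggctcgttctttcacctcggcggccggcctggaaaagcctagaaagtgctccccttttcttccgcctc
This motif, searched on both strands, was found in the promoters of Hspd1, Hspe1 and Hsph1, 3 of the 27 chaperone genes with a promoter in the table, and in 62 of the 11665 promoters of tested genes (0.532%). Matches were counted by gene, and the promoters of Hspd1 and Hspe1 may cover the same bases, so their matches may be the same site. Hspe1 had 179, 132 and 183 CPM in sham and 80.9, 109 and 107 CPM at 14 days (log2 -0.73 ± 0.22). Hspd1 had 230.1, 388 and 526 CPM against 200.5, 147 and 228 CPM (log2 -0.99 ± 0.34), where the lowest sham and the highest 14-day library almost touched. Because these starts lie close together and the strandedness of the libraries is not given, reads near the starts cannot be told apart. Hspa9, the mitochondrial Hsp70, had 526, 687 and 1139 CPM against 364, 295 and 425 CPM (log2 -1.12 ± 0.36). The inducible cytosolic Hsp70 genes Hspa1a and Hspa1b had 47.3, 62.2 and 82.7 CPM against 33.8, 13.5 and 20.2 CPM and 45.7, 56.1 and 70.3 CPM against 29.2, 10.2 and 21.6 CPM. They are near-identical copies, so how reads divide between them is uncertain. The cytosolic chaperonin subunit Tcp1 had 245, 275 and 253 CPM against 234, 222 and 243 CPM (log2 -0.15 ± 0.14), a difference close to that of all genes. Brown fat markers were lower in the same libraries (4982, 4531 and 9613 CPM in sham against 1465, 1097 and 2688 CPM at 14 days), and Hspa9 and Hspd1 were highest in sham replicate 3, where those markers were highest. Their part was not tested.

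Genes of nuclear receptors and thyroid hormone handling had a median of -0.34, with 6 of 24 lower and 2 higher without overlap. It was -0.14 without 14-day replicate 2 and -0.63 without 14-day replicate 1. Thrb, a thyroid hormone receptor (Entrez 21834, GRCm38.p6 chromosome 14, 17659225 to 18040097), had 101, 30.0 and 63.4 CPM in sham and 24.5, 9.58 and 17.7 CPM at 14 days (log2 -1.91 ± 0.55). Its sham libraries were spread widely, and the lowest of them was only slightly above the highest 14-day library. Thra, the other thyroid hormone receptor, had 254, 309 and 255 CPM against 238, 104 and 143 CPM (log2 -0.76 ± 0.29). Pgr, the progesterone receptor, was lower without overlap at 12.3, 5.15 and 5.61 CPM against 2.59, 0.144 and 1.7 CPM. The liver receptor homolog Nr5a2 was the reverse, at 0.639, 0.715 and 0.712 CPM against 1.19, 1.15 and 1.97 CPM (log2 1.05 ± 0.37), though at levels near 1 CPM.

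Genes of actin assembly and motility outside muscle were higher as a set, with a median of 0.91 (0.67 to 1.11 under the alternatives), 20 of 37 members higher and 0 lower without overlap. Most members serve the cytoskeleton of leukocytes and migrating cells. Was, the Wiskott-Aldrich protein of blood cells, had 3.2, 2.15 and 4 CPM in sham and 11.5, 38.9 and 48.7 CPM at 14 days (log2 3.40 ± 0.65). Vav1, a guanine nucleotide exchange factor of blood cells, had 11.4, 3.93 and 6.85 CPM against 22.6, 124 and 82.1 CPM (log2 3.37 ± 0.74). Arhgdib, a GDP dissociation inhibitor of leukocytes, had 53, 32.2 and 48.1 CPM against 116, 389 and 476 CPM (log2 2.88 ± 0.57). Elmo1, which with Dock proteins activates Rac during engulfment, had 22, 24 and 20.2 CPM against 37.1, 66.1 and 62.9 CPM (log2 1.33 ± 0.26). In the first 3 genes 14-day replicates 2 and 3 were several times higher than replicate 1, and the same 2 libraries were the macrophage-rich and the lymphocyte-rich ones; the part of those cells was not tested. Tubulins and microtubule-associated genes had a median of -0.38, which was 0.56 without sham replicate 2, -0.65 without sham replicate 1 and -0.58 without 14-day replicate 1. Their mean level was highest in the nerve-rich sham replicate 2 and 14-day replicate 1, at 6.06, 7.69 and 5.88 log2(CPM + 1) in sham and 7.16, 5.86 and 6.0 at 14 days. Within that list Tuba1c, an alpha-tubulin, was higher without overlap, at 75.1, 38.7 and 63.5 CPM against 113, 248 and 119 CPM (log2 1.44 ± 0.39), and Tuba8, another alpha-tubulin, was lower, at 40.8, 31.6 and 68.1 CPM against 10.5, 8.86 and 22.5 CPM (log2 -1.74 ± 0.57).

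Lysosomal membrane, proton pump and hydrolase genes other than cathepsins had a median of 0.64, with 13 of 40 members higher and 0 lower without overlap. Without 14-day replicate 2 the median was 0.13, so that 1 macrophage-rich library held most of the difference. Laptm5, a lysosomal membrane protein of blood cells, had 168, 37.5 and 82 CPM in sham and 271, 1325 and 592 CPM at 14 days (log2 2.93 ± 0.74). The groups did not overlap, and 14-day replicate 2 was the highest library. The transcription factors Tfeb, at 60.8, 22.5 and 37.8 CPM against 25.6, 46.8 and 49.4 CPM (log2 0.01 ± 0.38), and Mitf, at 23.1, 9.8 and 10.1 CPM against 10.4, 25.6 and 9.57 CPM (log2 0.09 ± 0.47), known to drive lysosomal genes, overlapped between groups; both were picked after their values were seen. Such factors bind a palindrome with the core CACGTG, and 2 hydrolase promoters show it in capitals, the beta-galactosidase gene Glb1 with 1 match at chr9:114400973-114401092 on the plus strand, and the alpha-galactosidase gene Gla with 2 matches to the longer TCACGTGA at chrX:134601136-134601255 on the minus strand, both RefSeq sequence in GRCm38.p6.
Glb1 promoter, 120 bases: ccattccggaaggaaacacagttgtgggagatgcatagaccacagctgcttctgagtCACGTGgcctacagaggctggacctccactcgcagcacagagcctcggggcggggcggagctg
Gla promoter, 120 bases: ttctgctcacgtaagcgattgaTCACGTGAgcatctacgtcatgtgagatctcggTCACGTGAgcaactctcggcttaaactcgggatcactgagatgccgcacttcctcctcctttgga
CACGTG was found in 9 of the 30 lysosomal promoters in the table and in 11.1% of all 11665 promoters, and TCACGTGA, which contains it, in 4 of 30 and in 2% of all. These motifs were searched on both strands, and of the motifs looked at they are shown after their matches were seen; a match describes the letters only. A further motif, the block GAAA repeated after 2 bases of any kind and known from interferon-responsive promoters, was found in 0 of the 11 promoters in the table for the 15 leading higher genes, 0 of 15 for the lower ones, and 3.9% of all. Sets of 11 and 15 promoters are too small for a count of 0 to be told apart from 3.9%. Glb1 had 34.2, 32 and 30.9 CPM in sham and 45, 116 and 47.5 CPM at 14 days (log2 1.10 ± 0.35). Gla, which overlapped between groups, had 21.8, 12.4 and 10.5 CPM against 24.3, 95.4 and 18.7 CPM (log2 1.63 ± 0.62).

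Prostanoid and leukotriene genes had a median of 0.45 (0.31 to 0.57 under the alternatives), with 11 of 28 higher and 2 lower without overlap. Ptger4, a receptor for prostaglandin E2 that raises cyclic AMP (Entrez 19219, GRCm38.p6 chromosome 15, 5233399 to 5244187), had 9.91, 8.23 and 9.34 CPM in sham and 17.3, 21.5 and 21.9 CPM at 14 days (log2 1.14 ± 0.23). The sham libraries lay within 2 CPM of each other, and every 14-day library was well above them. Lta4h, which makes leukotriene B4, had 35.7, 41.1 and 41.1 CPM against 48.7, 54.6 and 53.6 CPM (log2 0.41 ± 0.12), a small but even difference. Alox5ap, the membrane protein that presents arachidonate to 5-lipoxygenase, had 10.7, 8.08 and 18.2 CPM against 35, 273 and 32.2 CPM (log2 3.20 ± 0.88), and thromboxane synthase, Tbxas1, 9.59, 2.79 and 5.25 CPM against 18.8, 81.6 and 11.8 CPM (log2 2.67 ± 0.77). Both were highest by far in the macrophage-rich 14-day replicate 2, with the rest of the 14-day libraries still above sham. Of the genes in the other direction, the secreted phospholipase Pla2g5 had 3.2, 1.57 and 3.56 CPM against 0.701, 0.576 and 0.611 CPM (log2 -2.12 ± 0.65). Ptges2, a prostaglandin E synthase, had 52.5, 55 and 78.9 CPM against 35.6, 22.5 and 38.6 CPM (log2 -0.95 ± 0.33).

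Sphingolipid and lysophospholipid signalling genes had a median of 0.33, and 0.67 without sham replicate 2, with 11 of 32 higher and 1 lower without overlap. S1pr1, the sphingosine phosphate receptor of endothelium and lymphocytes, had 68.5, 81.3 and 99.5 CPM in sham and 118, 133 and 226 CPM at 14 days (log2 0.94 ± 0.28). Ugcg, which makes glucosylceramide, had 18.8, 18.5 and 15.3 CPM against 31.1, 45.2 and 69.7 CPM (log2 1.47 ± 0.36), and both of these were highest in the lymphocyte-rich replicate 3. Sptlc2, a subunit of the first enzyme of sphingolipid synthesis, had 51.7, 45.3 and 41.8 CPM against 70.1, 102 and 62.7 CPM (log2 0.76 ± 0.20). Lpar5, a lysophosphatidic acid receptor, had 0.959, 0.572 and 1.33 CPM against 3.43, 14 and 10.2 CPM (log2 3.26 ± 0.76). Smpd1, the acid sphingomyelinase, was the 1 lower member, at 139.8, 127 and 159 CPM against 105, 82.7 and 99.9 CPM (log2 -0.57 ± 0.20).

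Purine receptor and extracellular nucleotide genes had a median of 0.89, which was 0.57 without 14-day replicate 2, with 7 of 23 higher and 4 lower without overlap. Nt5e, the cell-surface enzyme CD73 that makes adenosine from AMP, had 10.2, 8.23 and 4.98 CPM in sham and 14.1, 16.2 and 16.2 CPM at 14 days (log2 0.99 ± 0.30), with close 14-day values. P2ry13, an ADP receptor, had 2.88, 2.22 and 1.96 CPM against 10.4, 15.3 and 14.5 CPM (log2 2.5 ± 0.57). Slc29a3, a lysosomal nucleoside transporter, had 31.8, 21.3 and 22.4 CPM against 40.1, 83.8 and 38.4 CPM (log2 1.10 ± 0.33). The ATP-gated channel P2rx5 ran the other way, at 45.8, 31.5 and 66.9 CPM against 20.5, 7.35 and 19 CPM (log2 -1.62 ± 0.50), and so did the adenosine receptor Adora1, at 73.3, 60.7 and 95.4 CPM against 57.9, 11 and 44.4 CPM, and adenosine kinase, Adk, at 89, 102 and 107 CPM against 80.02, 32.5 and 57 CPM. P2rx5, Adora1 and Adk were highest in sham replicate 3 and lowest in 14-day replicate 2. So were summed brown fat markers, at 4982, 4531 and 9613 CPM in sham and 1465, 1097 and 2688 CPM at 14 days. The part of brown fat was not tested.

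All 34 tested genes of cytosolic ribosomal proteins and their partners had positive fold changes, with a median of 0.63 (0.48 to 0.85 under the alternatives), yet only 4 were higher without overlap. Rplp0, of the ribosomal stalk, had 925, 571 and 792 CPM in sham and 938, 1662 and 1682 CPM at 14 days (log2 0.90 ± 0.30). Rps9 had 447, 300.1 and 374 CPM against 435, 811 and 885 CPM (log2 0.93 ± 0.30), with overlap. In both, 14-day replicates 2 and 3 held the difference, and replicate 1 was close to sham replicate 1. Processed copies of ribosomal protein genes are common in the mouse genome and can share their reads. Ribosome biogenesis genes had a median of 0.19, with 7 of 26 higher and 1 lower without overlap. It was 0.06 without 14-day replicate 3 and 0.34 without 14-day replicate 1. Myc, the transcription factor known to drive these genes, had 8.95, 6.29 and 5.87 CPM against 18.9, 23.1 and 34.6 CPM (log2 1.86 ± 0.35), with every 14-day library more than 2 times the highest sham library. Fbl, the rRNA methyltransferase fibrillarin, had 40.6, 31.7 and 37.5 CPM against 41, 70.2 and 78.3 CPM (log2 0.79 ± 0.26), and Rrn3, which brings RNA polymerase I to its promoter, was lower, at 53.4, 55.6 and 57.7 CPM against 42.5, 37.7 and 48.8 CPM (log2 -0.37 ± 0.14).

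Nucleotide metabolism genes had a median of 0.22, with 7 of 29 higher and 1 lower without overlap, and 0.14 without 14-day replicate 2 or 0.09 without sham replicate 1. Samhd1, which breaks down deoxynucleotides, had 58.2, 56.4 and 66.8 CPM in sham and 139.6, 164 and 258 CPM at 14 days (log2 1.63 ± 0.30). Upp1, uridine phosphorylase, had 1.92, 1.57 and 1.51 CPM against 6.8, 10.6 and 4.21 CPM (log2 2.10 ± 0.42). Impdh2, the committed enzyme of guanine nucleotide synthesis, had 44.2, 34.5 and 41.6 CPM against 52.6, 62.9 and 76.1 CPM (log2 0.67 ± 0.18). Amino acid transporters had a median of 0.30, with 5 of 24 higher and 1 lower without overlap; the median was 0.79 without sham replicate 2, 0.52 without sham replicate 1 and 0.19 without sham replicate 3. Slc7a2, a carrier of arginine and lysine, had 35, 30.0 and 20.2 CPM against 54.7, 72.8 and 37.3 CPM (log2 0.95 ± 0.32), and Slc36a2, a proton-coupled carrier of proline and glycine, was lower, at 406, 363 and 607 CPM against 291, 87.7 and 269 CPM (log2 -1.09 ± 0.50). Like the summed brown fat markers, Slc36a2 was highest in sham replicate 3 and lowest in 14-day replicate 2. The part of brown fat was not tested. Enzymes of serine, one-carbon, proline, arginine and polyamine metabolism had a median of 0.19, with 2 of 23 higher and 1 lower without overlap, and leaving out 1 library gave 0.11 (14-day replicate 2 or sham replicate 3), 0.31 (14-day replicate 1), 0.33 (sham replicate 2) or 0.40 (sham replicate 1). The counts without overlap of this list are below the shares of all genes (12.6% and 13.5%). Aldh18a1, which starts proline synthesis, had 23.8, 15.9 and 20.0 CPM against 38.6, 59.4 and 32.8 CPM (log2 1.13 ± 0.25). Arg1, arginase of alternatively activated macrophages and liver, had 0.746, 3.29 and 1.25 CPM against 7.43, 215 and 0.475 CPM, so it was read almost wholly in 1 library.

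**Figure D4:**
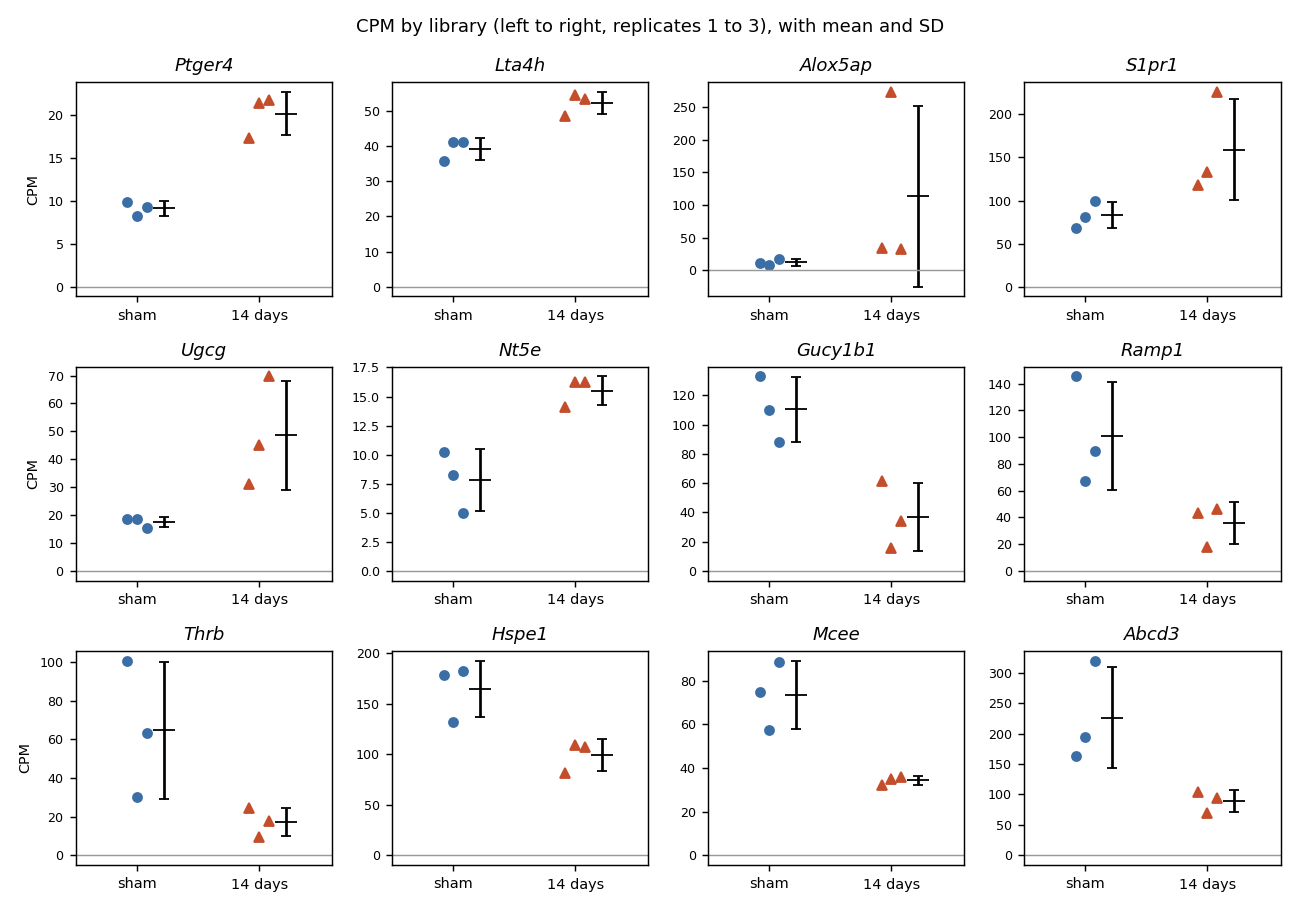
CPM of 12 genes in the 3 sham libraries (circles) and the 3 14-day libraries (triangles), in the order of replicates 1 to 3 from left to right, with the mean and SD of each group beside them. The groups do not overlap in any panel. Ptger4 and Lta4h are even within groups, whereas Nt5e and Mcee are even at 14 days but spread in sham. Alox5ap reaches 273 CPM in 14-day replicate 2 alone.

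Receptors and effectors of vasoactive peptides had a median of 0.06 (-0.08 to 0.39 with 1 library left out), close to all genes, with 2 of 27 higher and 5 lower without overlap. This lower share (5 of 27) is near that of all genes (13.5%). Gucy1b1, the haem-binding subunit of the guanylate cyclase that senses nitric oxide (Entrez 54195, GRCm38.p6 chromosome 3, 82032004 to 82074711), had 133, 109.9 and 88.2 CPM in sham and 61.2, 15.5 and 33.8 CPM at 14 days (log2 -1.58 ± 0.45). Ramp1, the partner of the CGRP receptor, had 145, 66.9 and 89.5 CPM against 43.6, 17.7 and 46.2 CPM (log2 -1.49 ± 0.45). The natriuretic peptide receptors Npr2, at 159, 97.3 and 104 CPM against 94.5, 65.2 and 62.3 CPM, and Npr3, at 24.2, 18.7 and 23.4 CPM against 11.5, 6.99 and 12.9 CPM (log2 -1.08 ± 0.40), did not overlap either; Npr3 is known to clear the peptides. Smooth muscle marker sums were 28067, 9370 and 19760 CPM in sham and 16348, 3553 and 12066 CPM at 14 days, overlapping between groups, and Gucy1b1 was lowest in the library where they were lowest. Their part was not tested. Bdkrb1, the inducible bradykinin receptor, was higher at 0.533, 0.143 and 0.267 CPM against 1.89, 1.44 and 1.02 CPM, with sham near the level of 3 counts, and Aplnr, the apelin receptor, at 26.4, 23.2 and 17.6 CPM against 35, 70.4 and 26.7 CPM (log2 0.97 ± 0.37).

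Semaphorins, ephrins, slits and netrins, known as guides of axons and vessels, had a median of 0.31, with 5 of 43 higher and 4 lower without overlap. Both counts are below the shares of all genes (12.6% and 13.5%). The median was 0.02, 0.13 and 0.14 without 14-day replicates 1, 2 and 3 and 0.14 without sham replicate 1, so it rests on single libraries. Slit2, a ligand of Robo receptors, had 4.69, 6.87 and 5.16 CPM in sham and 17.9, 34 and 8.08 CPM at 14 days (log2 1.84 ± 0.55). Sema4d, a semaphorin of lymphocytes, had 13.5, 21.5 and 3.29 CPM against 27.6, 106 and 69.3 CPM (log2 2.4 ± 0.77). Lower without overlap were the netrin receptor Unc5c, at 29.6, 18 and 22.2 CPM against 11.7, 4.11 and 7.94 CPM (log2 -1.56 ± 0.39), and the ephrin Efna5, at 92.9, 81 and 59.3 CPM against 42.3, 16.7 and 34.9 CPM (log2 -1.31 ± 0.36). The secreted Sema3c, at 109, 60.2 and 93.2 CPM against 51.7, 12 and 39.8 CPM, and the membrane-bound Sema5a, at 85, 45.6 and 46.6 CPM against 36.6, 7.06 and 29.8 CPM, were lower as well, each lowest in 14-day replicate 2.

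The IGF system and imprinted growth genes had a median of -0.31, which was 0.43 without sham replicate 2 and -0.08 without 14-day replicate 2, while 4 of 22 were higher and 1 lower without overlap. The higher ones all belong to IGF signalling itself. Igf1, a growth factor, had 114, 61.4 and 63 CPM in sham and 173, 468 and 119 CPM at 14 days (log2 1.67 ± 0.53). Of its binding proteins, Igfbp2 had 51, 11.1 and 31.3 CPM against 176, 166 and 135 CPM (log2 2.35 ± 1.02), Igfbp3 had 13.5, 30.8 and 14.2 CPM against 51.3, 330.0 and 45.6 CPM (log2 2.86 ± 0.80), and Igfbp4 had 418, 309 and 393 CPM against 823, 1016 and 511 CPM (log2 1.07 ± 0.30). Igfbp2 was high in each 14-day library, whereas Igfbp3 was mainly in replicate 2. Igfbp4 in 14-day replicate 3 (511 CPM) was only a little above sham replicate 1 (418 CPM). Fibroblast markers (6 genes, 3 of them higher without overlap) summed to 2230, 2021 and 3334 CPM in sham and 5805, 10767 and 3583 CPM at 14 days, and like Igf1, Igfbp3 and Igfbp4 were highest in replicate 2. Their part was not tested.

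Regional and lineage transcription factors had a median of -0.36, which was 0.01 without sham replicate 2 and -0.15 without sham replicate 1, with 3 of 52 higher and 1 lower without overlap. These are smaller shares than those of all genes (12.6% higher and 13.5% lower). The 3 higher ones were the runt family. Runx1 had 5.65, 2.93 and 5.69 CPM in sham and 12.5, 67.4 and 20.7 CPM at 14 days (log2 2.82 ± 0.62), Runx2, the bone regulator, 2.88, 1.07 and 1.51 CPM against 3.78, 17.6 and 6.38 CPM (log2 2.35 ± 0.67). Runx3, known in lymphocytes, had 2.13, 1.22 and 2.05 CPM against 5.75, 29 and 33.1 CPM (log2 3.65 ± 0.83). Runx1 and Runx2 were highest in 14-day replicate 2, while Runx3 was alike in replicates 2 and 3. Foxf1, a mesenchymal factor of the trunk, had 33, 2.57 and 11.3 CPM against 2.87, 1.94 and 3.53 CPM (log2 -2.48 ± 0.84), overlapping between groups.

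DNA methylation and chromatin genes had a median of 0.14, and 0.03 without 14-day replicate 3, 0.07 without sham replicate 2 or 0.31 without sham replicate 1, with 4 of 30 higher and 2 lower without overlap. The higher share is near that of all genes (12.6%), and the lower share is under theirs (13.5%). Dnmt1, the maintenance DNA methyltransferase, had 24.6, 27.1 and 26.2 CPM in sham and 35.2, 72.9 and 67.8 CPM at 14 days (log2 1.17 ± 0.32). Ezh2, the polycomb methyltransferase, had 6.93, 5.58 and 7.12 CPM against 9.04, 12.7 and 15.3 CPM (log2 0.91 ± 0.27). Hmgb2, a DNA-bending protein of dividing cells, had 15.6, 8.8 and 9.79 CPM against 21.4, 44.9 and 66.8 CPM (log2 1.96 ± 0.49). p53 targets and senescence-associated genes had a median of 0.34, and 0.53 without sham replicate 1, with 5 of 27 higher and 1 lower without overlap. Here too the higher share (5 of 27) is near that of all genes (12.6%). Trp53 itself had 56.4, 36.3 and 41.8 CPM against 58.2, 78.2 and 108 CPM (log2 0.86 ± 0.27). Lmnb1, a nuclear lamin whose loss marks senescence, was higher, at 2.13, 3.43 and 4.54 CPM against 9.11, 19.1 and 23.4 CPM (log2 2.35 ± 0.48), with each 14-day library above all of sham.

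Glycosaminoglycan synthesis genes had a median of 0.27, and 0.13 without 14-day replicate 2 or 0.14 without sham replicate 2, with 4 of 40 higher and 1 lower without overlap. Both counts are below the shares of all genes (12.6% and 13.5%). Dse, which makes the iduronic acid of dermatan sulfate, had 19, 15.3 and 23.9 CPM in sham and 29, 61.9 and 26.2 CPM at 14 days (log2 1.01 ± 0.35). Hyal1, a lysosomal hyaluronidase, had 106, 51.1 and 106 CPM against 52.9, 36.7 and 44.1 CPM (log2 -0.98 ± 0.32), overlapping between groups. Zinc, copper and selenium handling genes had a median of 0.16, and 0.08 to 0.33 with 1 library left out, with 1 of 25 higher and 0 lower without overlap. Those counts are below the shares of all genes as well. Slc30a7, which loads zinc into the Golgi, had 37.6, 25 and 31.6 CPM against 37.8, 56.3 and 46.5 CPM (log2 0.58 ± 0.20).

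Several lists lay near the median of all genes, and leaving out 1 library moved many of these small medians by more than 1.5 times. Their counts without overlap stand against 12.6% higher and 13.5% lower among all genes. Cytochrome P450 and other detoxification genes had a median of -0.27, and -0.06 without sham replicate 1 or -0.12 without 14-day replicate 2, with 8 of 36 lower and 2 higher without overlap. Ephx2, the soluble epoxide hydrolase that degrades vasodilator epoxides of arachidonate, had 366, 292 and 403 CPM in sham and 194, 103 and 238 CPM at 14 days (log2 -0.99 ± 0.35). Gsta4, a glutathione transferase for lipid aldehydes, had 46.8, 43.2 and 60.2 CPM against 24.9, 33.3 and 25.8 CPM (log2 -0.84 ± 0.26). Hypoxia-inducible genes had a median of 0.11 (-0.05 to 0.15 with 1 library left out), with 0 of 24 higher and 4 lower without overlap, among them Vegfa, the endothelial growth factor, at 295, 217 and 355 CPM against 192, 157 and 162 CPM (log2 -0.76 ± 0.28), and Higd1a, a mitochondrial protein, at 86.6, 82.8 and 87.2 CPM against 55.3, 39.7 and 47.3 CPM (log2 -0.85 ± 0.21). Retinoid genes had a median of -0.09 (-0.18 to 0.04 with 1 library left out) with 1 of 24 higher and 2 lower without overlap, the receptors Rara, at 35.5, 14.8 and 21.7 CPM against 36.5, 49.1 and 41.6 CPM, and Rarb, at 9.27, 9.01 and 13.7 CPM against 6.03, 1.8 and 5.36 CPM, lying on opposite sides. Constitutive proteasome genes had a median of -0.09 (-0.14 to -0.03 with 1 library left out) with 0 of 29 higher and 8 lower without overlap, by small amounts such as 129, 159 and 159 CPM against 119.5, 104 and 105 CPM for Psmb7. Splicing factors had a median of 0.02 (-0.11 to 0.10 with 1 library left out) with 3 of 28 higher and 4 lower without overlap, for example Hnrnpa1 at 130.1, 135 and 116 CPM against 179, 184 and 232 CPM and Khdrbs3 at 53.4, 49.2 and 63.3 CPM against 36.2, 15.3 and 23.9 CPM. Annexins, S100 proteins and galectins had a median of 0.09 (-0.01 to 0.22 with 1 library left out) with 3 of 24 higher and 3 lower without overlap, the galectin-binding Lgals3bp having 169, 239.7 and 196 CPM against 540.1, 481 and 398 CPM (log2 1.23 ± 0.34). Secretory pathway genes (0.13, and 0.02 to 0.21 with 1 library left out; 2 of 35 higher and 1 lower without overlap) and cytosolic tRNA synthetases (0.09, and 0.06 to 0.17; 1 of 20 higher and 1 lower) were near the median of all genes. So were glucocorticoid-responsive genes (-0.05, and -0.25 to -0.03; 1 of 20 higher and 1 lower), junction genes (-0.05, and -0.31 to 0.21, negative without 14-day replicate 1 and positive without 14-day replicate 2; 2 of 30 higher and 2 lower) and Hippo and Hedgehog genes (-0.07, and -0.26 to 0.06; 1 of 26 higher and 0 lower). Pdk4, the kinase that shuts off pyruvate dehydrogenase, was the lower one of the glucocorticoid-responsive genes, at 239, 488 and 998 CPM against 151, 112 and 194 CPM (log2 -1.92 ± 0.53). Like the summed brown fat markers, Pdk4 and Vegfa were highest in sham replicate 3 and lowest in 14-day replicate 2. The part of brown fat was not tested. A last list, of long non-coding RNAs, was not analysed here.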

How the data were processed

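RNA of 9 aorta libraries was sequenced from TRIzol extracts with an MGIEasy mRNA kit, per the labels' protocols. The authors' deposited values are expected counts per gene, 1 file per library. HISAT2 2.2.1, Bowtie2 2.4.5, RSEM 1.3.1 and GRCm38.p6 are named in the submitters' processing notes, but no source used here says which aligner gave the counts or whether the libraries were stranded. They are not whole for 9.77% to 11% of the genes of a library, and were rounded.

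Files were joined by Entrez ID. Symbols and positions came from the RefSeq GRCm38.p6 table, with 18775 of 18830 IDs matched and 55 not, and 658 genes were at 0 in all 9 libraries. After filterByExpr with the 3 groups, 14741 genes were tested with edgeR 4.0.16 (R 4.3.3; TMM, robust quasi-likelihood fit), all 9 libraries sharing the spread. The common dispersion was 0.263, a biological coefficient of variation of 51.3%. The SE is the log2 fold change over the square root of the F statistic. A two-sided exact permutation test of 3 libraries against 3 reaches at best p = 0.1. No pair of libraries agreed within sampling noise. Replicate numbers name libraries only.

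The rule for named genes took the 15 genes with the smallest p each way among those without overlap, with a mean of at least 5 CPM, and outside a list of usual name prefixes. It added up to 4 members with the smallest p from each functional list, and the marker sets. A list within 0.2 log2 of the median of all genes was described briefly, as was the secretory pathway list, which lies just outside that range. A few genes that the rule names are not reported here. Other genes were chosen after their values were seen. The comparison, the lists and the rule were chosen with earlier results of these data known. Promoter motifs were searched in RefSeq promoters, present for 11665 tested genes. Alternatives were DESeq2 1.42.0, limma-voom (limma 3.58.1), RLE factors, no filter, at least 5 CPM in 3 libraries, the 2 groups alone, a replicate block, each library left out, and, added after seeing the data, both nerve-rich libraries left out. The procedure was also run on simulated data, whose outcome is not reported here, so its power to call changes is not given.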

Additional observations from a re-analysis of the deposited data

How the results depend on the processing

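No gene was called by edgeR at an adjusted p under 0.05 with RLE factors, with no filter, with at least 5 CPM in 3 libraries, or with any 1 of the 6 libraries left out, and limma-voom called none. DESeq2 called 1970. A fit of the 6 libraries alone called 1 (Marco), and the fit with the replicate number as a block called 1 (Plac8, adjusted p = 0.0459). The numbers are not shown to pair libraries, since deviations of same-numbered libraries correlated at -0.455, -0.553 and 0.205 and only the third number's pair was positive. The block moved no named gene past the threshold. With 1 library left out, genes without overlap ran from 2226 to 2996 higher and 2319 to 3202 lower, and those lower at an unadjusted p under 0.05 from 670 to 1675. With sham replicate 2 and 14-day replicate 1, the nerve-rich libraries, left out together, a choice made after seeing the data, 3787 genes were higher and 4322 lower without overlap. All 180 named genes of the rule kept their direction under each alternative that tested them (176 under the 5 CPM filter), and DESeq2 put 131 of them past the threshold. Of all genes tested, DESeq2 called 8.6% as higher and 4.77% as lower. The 180 genes were picked by small p on the same counts, which favours both results, so neither adds support.

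List medians with 1 library left out ran from 0.19 to 0.79 for amino acid transporters, 0.11 to 0.40 for serine, proline and polyamine enzymes, 0.09 to 0.32 for nucleotide metabolism, 0.26 to 0.67 for sphingolipid and lysophospholipid signalling and 0.57 to 0.95 for purine receptors. They ran from 0.06 to 0.34 for ribosome biogenesis, 0.02 to 0.35 for semaphorins and ephrins, -0.63 to -0.14 for nuclear receptors, -0.28 to -0.15 for autophagy and, with a change of sign, -0.26 to 0.06 for Hippo and Hedgehog genes. The sign also changed within the range for IGF and imprinted genes (-0.39 to 0.43), microtubule genes (-0.65 to 0.56), regional transcription factors (-0.49 to 0.01), vasoactive peptides (-0.08 to 0.39), hypoxia genes (-0.05 to 0.15), junction genes (-0.31 to 0.21), splicing factors (-0.11 to 0.10), retinoid genes (-0.18 to 0.04) and annexins, S100 proteins and galectins (-0.01 to 0.22). With both nerve-rich libraries left out, medians were 0.82 for amino acid transporters, 0.42 for serine, proline and polyamine enzymes, 0.42 for nucleotide metabolism, 0.70 for sphingolipid and lysophospholipid signalling, -0.36 for Hippo and Hedgehog genes and -0.20 for autophagy. Microtubule genes, at -0.38 in the main fit, changed sign to 0.12 with those 2 libraries left out. limma-voom gave 0.63 for purine receptors, -0.20 for autophagy and -0.09 for microtubule genes. The replicate block gave -0.20 for autophagy, -0.02 for microtubule genes and -0.00 for IGF and imprinted genes. It gave -0.12 for creatine, carnitine and ketone body genes and 0.52 for amino acid transporters. The causes of these shifts were not tested. Medians of branched-chain breakdown, mitochondrial biogenesis, peroxisome, chaperone, actin, ribosomal protein and eicosanoid genes kept their sign and stayed within 1.5 times under every alternative.

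A library of these depths puts the level of 3 counts at 0.204 to 0.32 CPM, and differences below about that level are not detectable. With 3 libraries a group, 1 library can set a mean, as 14-day replicate 2 did for Hmox1 and Arg1.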

Other observations

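Gm13309, picked after its values were seen, had 0 counts in each sham library and 230, 282 and 168 counts in 14-day replicates 1 to 3. It belongs to a group of near-identical gene copies among which expected counts can be divided in an arbitrary way, so the value of this copy is uncertain. Art2b, an ADP-ribosyltransferase of T cells picked in the same way, had 1 count in each sham library and 16, 14 and 331 counts at 14 days, and was highest in the lymphocyte-rich replicate 3.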
